A study of Homo sapiens with 20 samples.

Results

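The replication-dependent histone genes were followed across 20 arrays of LNCaP, an established prostate cancer cell line of human origin that responds to androgens. The members were the genes with symbols H1-1 to H1-5 and those that start with H2AC, H2BC, H3C or H4C followed by a number, with pseudogenes left out. Of 69 genes of that kind in RefSeq, 56 had a transcript cluster (the array's probe set for a gene) annotated to that symbol alone, out of 18417 genes tested. They were 5 of 5 H1, 14 of 17 H2A, 16 of 19 H2B, 8 of 13 H3 and 13 of 15 H4 genes. The other 13 (H2AC7, H2AC18, H2AC19, H2BC12L, H2BC15, H2BC18, H3C4, H3C6, H3C13, H3C14, H3C15, H4C11 and H4C12) lay only on clusters shared by several symbols. H4C14 and H4C15 had the same value on every array, so the 56 members gave 55 distinct measurements. The genes are short and nearly alike within a class, and how far a cluster also takes up RNA of a near-identical copy was not tested. By RefSeq, 48 members lie on chromosome 6, 7 on chromosome 1 and 1 on chromosome 12.

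The study set 5 drug arrests beside 2 groups kept in what the labels call CDT medium, and every group except CDT had 10 nM dihydrotestosterone (DHT), a potent natural androgen, for the last 3 h. Early G1 cells had 0.5 µM PD-0332991, an inhibitor of the kinases that act with cyclin D, for 24 h (n = 3), and late G1 cells had 5 µg/mL roscovitine, which inhibits several cyclin-dependent kinases, for 24 h (n = 3). Early S cells had 2 µg/mL aphidicolin, an inhibitor of the replicative DNA polymerases, for 24 h (n = 2). Late S cells had 1 mM hydroxyurea, which blocks ribonucleotide reductase, for 24 h (n = 3). For G2/M, aphidicolin at 2 µg/mL for 15 h was washed out and followed by 50 ng/mL nocodazole, a microtubule poison, for 9 h (n = 3). These 5 groups grew in hormone-proficient medium. CDT+DHT cells were kept in CDT medium for 72 h and then had DHT (n = 3), and CDT cells were kept there for 72 h with ethanol for the last 3 h (n = 3). The phases are those that the labels give, and an arrest differs from CDT+DHT in drug and medium together, which cannot be told apart here.

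Luminal prostate markers had array means of 5.96 to 8.08 on the log2 scale (5 of 6 genes measured; FOLH1 was not). Stromal markers had array means of 1.63 to 3.90 (5 of 5 measured), leukocyte markers 2.01 to 3.63 (4 of 4) and basal epithelial markers 2.41 to 4.41 (2 of 3; TP63 was not measured). Array medians ran from 5.44 to 9.08 in intensity, with 6.23 to 8.13 in late G1, and no 2 arrays were identical. The labels do not state that replicates came from separate cultures, so the p-values reflect no more than the spread among these arrays, which may be technical. In bulk RNA, fewer cells that make a transcript and less of it per cell cannot be told apart.

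Replication-dependent histone genes supply the histones that package newly made DNA. Their mRNAs mostly end in a stem-loop instead of a poly(A) tail and are bound there by SLBP, and both their transcription and their stability are coupled to DNA synthesis. Cyclin E with CDK2 phosphorylates NPAT, a coactivator at the histone gene clusters, as cells pass from G1 into S phase. H2A, H2B, H3 and H4 form the nucleosome core, and H1 binds the linker DNA between cores.

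The promoters of the classes carry different short motifs, which are shown for some of the members that passed in a comparison and for H4C8, which did not. RefSeq's promoter table (GRCh38.p14) held 51 of the 56 members. H2AC12, H3C11, H3C12, H4C1 and H4C3 had no entry. In the sequences below, which end at the base before the gene's start, capitals mark the H1 box AAACACA in H1-2 (chr6:26056471-26056600, minus strand) and H1-5 (chr6:27867589-27867718, minus strand). They mark the octamer ATTTGCAT, or its reverse complement, in H2BC7 (chr6:26199386-26199515, plus strand) and H2AC21 (chr1:149887966-149888185, minus strand). They mark the core of the H4 element, GGTCCG, in H4C2 (chr6:26027284-26027413, minus strand) and H4C8 (chr6:26285535-26285664, minus strand).
H1-2: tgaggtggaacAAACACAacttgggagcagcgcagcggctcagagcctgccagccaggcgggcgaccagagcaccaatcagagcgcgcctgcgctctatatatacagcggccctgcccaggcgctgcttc
H1-5: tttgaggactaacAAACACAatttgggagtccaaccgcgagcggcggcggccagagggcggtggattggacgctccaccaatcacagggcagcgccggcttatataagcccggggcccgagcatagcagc
H2BC7: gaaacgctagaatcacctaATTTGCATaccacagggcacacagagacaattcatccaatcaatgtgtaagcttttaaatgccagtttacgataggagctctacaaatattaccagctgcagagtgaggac
H2AC21: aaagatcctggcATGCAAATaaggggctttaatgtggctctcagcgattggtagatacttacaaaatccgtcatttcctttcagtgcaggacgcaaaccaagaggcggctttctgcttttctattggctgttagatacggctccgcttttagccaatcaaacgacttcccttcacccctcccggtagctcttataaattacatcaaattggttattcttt
H4C2: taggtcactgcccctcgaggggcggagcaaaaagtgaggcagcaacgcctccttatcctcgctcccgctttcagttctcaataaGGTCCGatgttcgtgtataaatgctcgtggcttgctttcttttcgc
H4C8: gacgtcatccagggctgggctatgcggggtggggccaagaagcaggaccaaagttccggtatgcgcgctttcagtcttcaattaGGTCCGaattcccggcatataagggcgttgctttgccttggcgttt

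The H1 box began 119 and 117 bases before the start in H1-2 and H1-5, and the H4 core element began 46 bases before it in both H4 genes. Within 250 bases before the start, on either strand and with matches of different motifs counted separately even where they overlap, AAACACA stood in 5 of 5 H1 promoters and in 0 of the other members, against 4.95% of 27305 promoters in all. ATTTGCAT stood in 10 of 13 H2A and 13 of 16 H2B promoters and in 0 of the H1, H3 and H4 promoters, against 1.66% of all promoters. GGTCCG stood in 10 of 11 H4 promoters and in 1 each of the H2A, H2B and H3 promoters, against 9.33% of all promoters. CCAAT, the binding motif of NF-Y, stood in 43 of 51 members, though in only 3 of 11 H4 promoters, against 33.0% of all promoters. TATAAA stood in 34 of 51, against 11.1%. A match is a description of the letters and not evidence of a bound site.

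The mean of the 56 members was 4.69 ± 0.26 (early G1), 3.64 ± 0.06 (late G1), 4.83 ± 0.86 (early S), 4.17 ± 0.37 (late S), 4.93 ± 0.34 (G2/M), 4.79 ± 0.33 (CDT+DHT) and 4.36 ± 0.30 (CDT) (log2 intensity + 1, SD over arrays, n = 3 and 2 in early S). The 3 late G1 arrays had 3.59, 3.70 and 3.63, and all of the other 17 arrays were higher. Late S replicate 1 was the nearest of those, at 3.75. The 2 early S arrays were far apart, at 5.44 and 4.22, and the first of them was the highest of all 20.

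**Figure D1:**
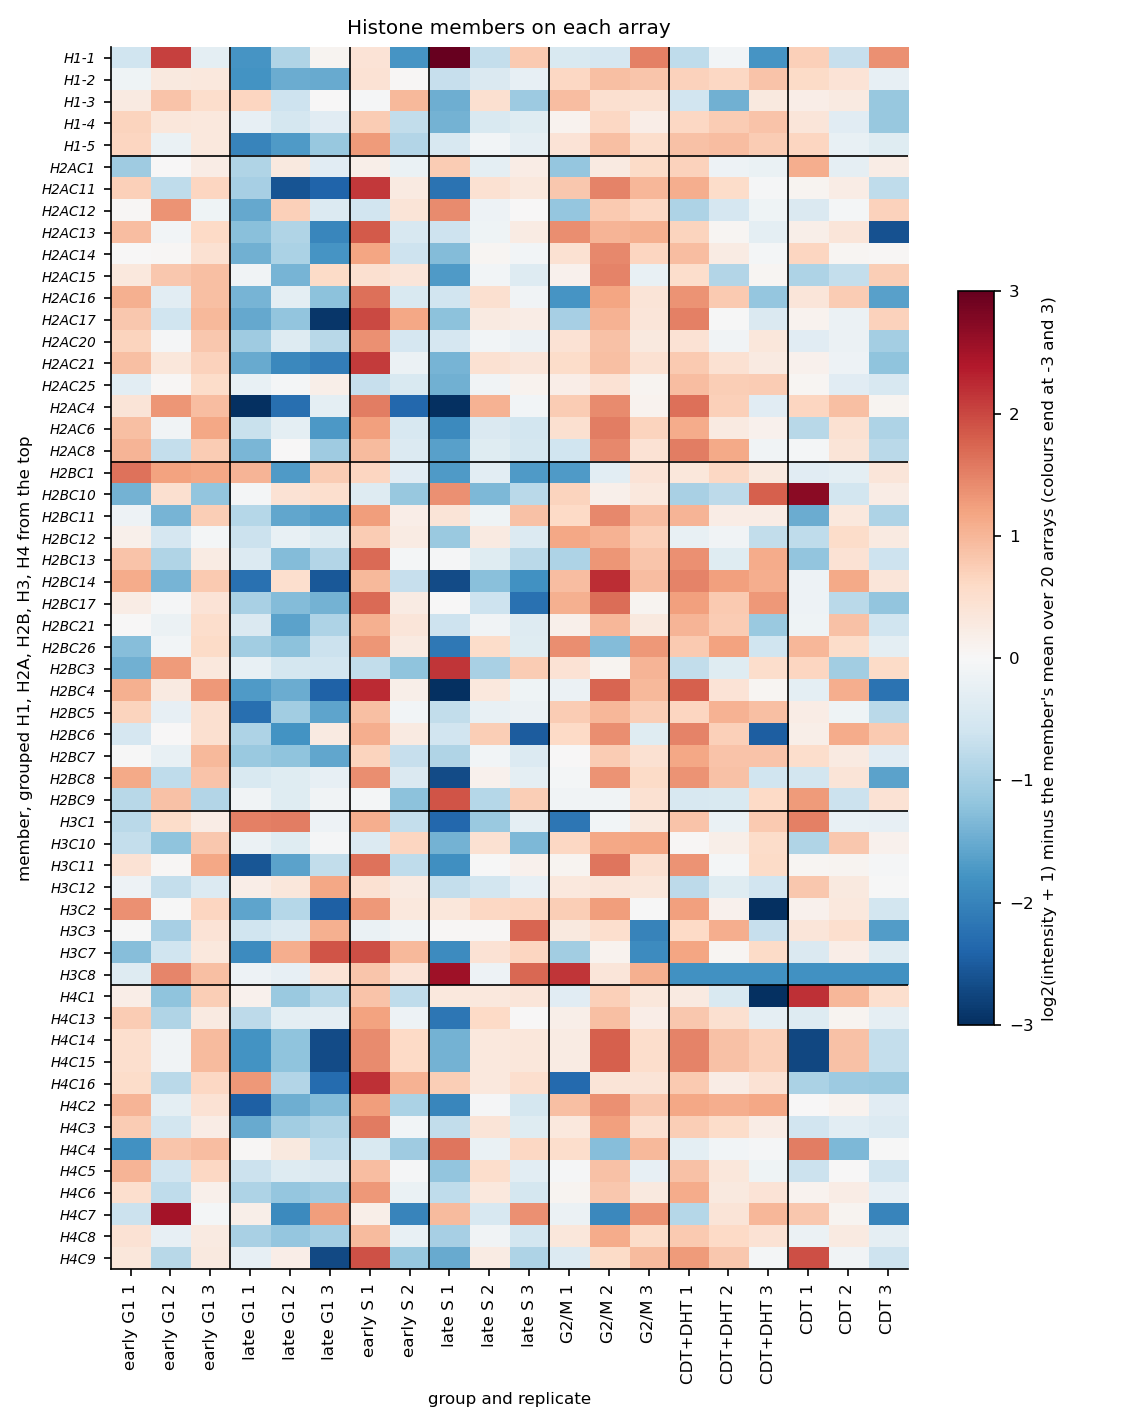
Each row is 1 of the 56 histone members, grouped by class, and each column 1 array; the colour is log2(intensity + 1) minus that member's mean over the 20 arrays. Blue dominates late S replicate 1 and, outside H3, the 3 late G1 columns. Red dominates early S replicate 1 and G2/M replicate 2, and H3C8 is blue on all 6 CDT+DHT and CDT arrays.

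**Figure D2:**
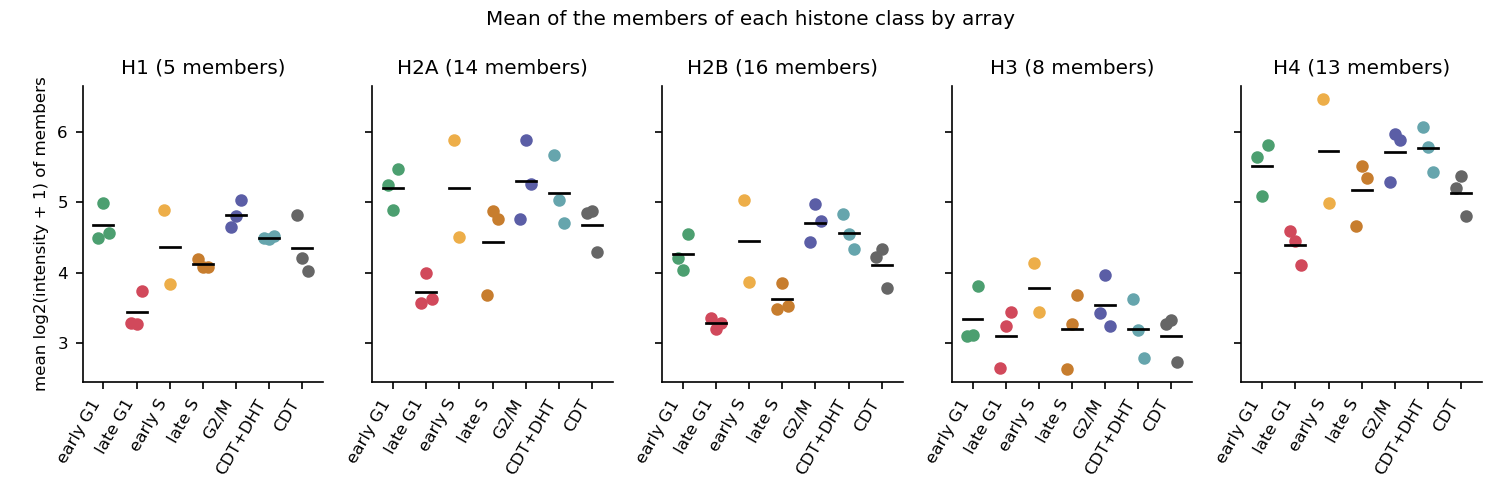
The mean log2(intensity + 1) of the members of each class is plotted for every array (points) with the group mean (line). The late G1 arrays lie below all other arrays for H1, H2B and H4, below all others except late S replicate 1 for H2A, and among the others for H3.

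Each arrest was compared with CDT+DHT, the cells that had the same androgen without an arrest drug. The labels give no cell cycle phase for CDT+DHT. Late G1 gave the largest number of called histone genes of the 5 arrests. In late G1 against CDT+DHT, 5 of the 56 members passed and all 5 were lower: the linker histones H1-2 and H1-5, the H2B genes H2BC5 and H2BC7, and H4C2 (limma, Benjamini-Hochberg adjusted over all genes, threshold 0.05). Of all 18417 genes, 0.489% were called lower. The median difference of the members was -1.16 on the log2 scale, against -0.07 over all genes tested, and 48 of 56 were below 0. At an unadjusted p under 0.05 there were 28 members, against 14.0% of all genes, and 28 members had late G1 arrays all below the CDT+DHT arrays, against 14.0% of all genes. In the same comparison the luminal markers had a median of -1.19 (3 of 5 below 0), the stromal markers -0.34, the leukocyte markers 0.29 and the basal markers -0.70, with 0 passing (limma; 3, 1, 0 and 0 genes at an unadjusted p under 0.05), and their part in the result was not tested. The count of 5 was 0 with only these 2 groups in the fit and 1 with replicate number as a block. It ranged up to 23 with arrays weighted by quality. Without 1 array it fell to 0 (without CDT+DHT replicate 1, 2 or 3 or late G1 replicate 3), 1 (late G1 replicate 1), 2 (CDT replicate 2, late S replicate 3 or any 1 of the G2/M arrays) or 3 (late G1 replicate 2). The highest such count was 7, reached without CDT replicate 1.

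Late G1 was next compared with the mean of the other 4 arrests, which shared DHT and medium with it. Here 4 of 56 members passed, all lower: H1-2, H2BC5, H2AC21 and H2AC11, against 0.690% of all genes called lower. The median difference of the members was -1.06, against -0.09 over all genes, with 49 of 56 below 0. At an unadjusted p under 0.05 there were 26 members, against 10.5% of all genes, and 9 members had all 3 late G1 arrays below all 11 other arrested arrays, against 1.28% of all genes. Without 1 array the count was 0 (late G1 replicate 1 or 3), 1 (late G1 replicate 2), 7 (early G1 replicate 2) or 11 (late S replicate 1). With only the arrests in the fit it was 2, of which 1 was among the 4. The late G1 arrays are common to this comparison and the one with CDT+DHT.

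H1-2 was the member with the smallest adjusted p in both comparisons. It encodes a linker histone and also makes a polyadenylated transcript. Its log2 intensities were 7.10, 7.53 and 7.55 (early G1), 5.46, 5.75 and 5.74 (late G1), 7.67 and 7.27 (early S), 6.56, 6.82 and 6.99 (late S), 7.86, 8.14 and 8.08 (G2/M), 7.93, 7.86 and 8.10 (CDT+DHT), and 7.81, 7.65 and 6.99 (CDT). The late G1 arrays were below every other array, and the late S arrays were the next lowest, level with CDT replicate 3 at the top. The difference of late G1 was -2.32 ± 0.41 (SE) against CDT+DHT, which is 4.99-fold lower (limma adjusted p = 0.0123), and -1.78 ± 0.33 against the other arrests (adjusted p = 0.0118). Against CDT it was -1.84 ± 0.41 and did not pass (adjusted p = 0.0986). The call against CDT+DHT was lost without any 1 CDT+DHT array (adjusted p up to 0.0756) or without late G1 replicate 3, and with only those 2 groups in the fit (adjusted p = 0.109). The call against the other arrests was lost without any 1 late G1 array (adjusted p up to 0.0796).

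Among the other linker histones, H1-5 had log2 intensities of 2.01, 2.29 and 2.86 in late G1, against 4.87, 4.92 and 4.76 in CDT+DHT. Its late G1 arrays were also below all other arrays, the nearest of which was early S replicate 2 at 3.11. The difference from CDT+DHT was -2.46 ± 0.53 (5.51-fold lower, limma adjusted p = 0.0429), and that from the other arrests was -1.81 ± 0.42 (adjusted p = 0.0517). It passed in 9 of 20 refits that each left out 1 array. It did not pass without any 1 late G1, CDT+DHT or G2/M array, CDT replicate 2 or late S replicate 3 (adjusted p up to 0.167), and its difference was -1.11 with a pseudocount of 16. H1-4 differed by -1.11 ± 0.50 against CDT+DHT, H1-1 by 0.00 ± 0.97 and H1-3 by 0.58 ± 0.60, none of which passed. H1-1 and H1-3 were dim, with 4 and 2 arrays under an intensity of 1.

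The 14 H2A members had a median difference of -1.46 in late G1 against CDT+DHT, with 13 below 0 and 0 passing (limma). At an unadjusted p under 0.05 (limma) there were 8, against 14.0% of all genes. Against the other arrests the median was -1.18 with 13 of 14 below 0, and 2 passed. H2AC21 had 4.75, 4.34 and 4.20 (late G1), against 7.17, 6.61 and 6.97 (early G1), 8.36 and 6.10 (early S), 4.87, 6.72 and 6.64 (late S) and 6.82, 7.18 and 6.71 (G2/M). The late G1 arrays were below all 11 other arrested arrays, late S replicate 1 being close to them. The difference was -2.35 ± 0.48 (5.10-fold lower, limma adjusted p = 0.0243), and the call was lost without any 1 of the late G1 arrays (adjusted p up to 0.149). H2AC11 had 3.26, 1.66 and 1.84 in late G1, and late S replicate 1, at 2.02, lay within that range, while the other 10 arrested arrays had 3.48 to 6.36. Its difference was -2.49 ± 0.57 (5.62-fold lower, adjusted p = 0.0479), and it passed in only 3 of the 20 refits that left out 1 array, those without late S replicate 1, early G1 replicate 2 or early S replicate 2. With a pseudocount of 16 the H2AC11 difference was -1.14 and did not pass. H2AC17, just outside the threshold, had -2.35 ± 0.55 (adjusted p = 0.0535).

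Members with a high signal are given next, with no comparison of levels between genes. H2AC20 had 7.28, 7.95 and 7.51 in late G1, against 8.78, 8.24 and 8.67 in CDT+DHT, a difference of -0.98 ± 0.50 that did not pass (limma adjusted p = 0.392). H2AC6, which also makes a polyadenylated transcript, had 7.06, 7.44 and 6.01 in late G1, against 8.84, 7.99 and 7.86 in CDT+DHT, a difference of -1.40 ± 0.62 (adjusted p = 0.322). In both genes the late G1 arrays were all below the CDT+DHT arrays, as they were in 14.0% of all genes. By promoter, the 10 H2A members with the octamer had a median difference of -1.71 and the 3 without it -0.84, whereas the 13 H2B members with it had -0.90 and the 3 without it -1.57.

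The H2B members had a median difference of -1.33 in late G1 against CDT+DHT, with 15 of 16 below 0 and 2 passing. H2BC5 had log2 intensities of 7.42, 6.51 and 7.23 (early G1), 4.49, 5.71 and 5.18 (late G1), 7.65 and 6.67 (early S), 6.02, 6.53 and 6.59 (late S), 7.51, 7.75 and 7.48 (G2/M), 7.41, 7.79 and 7.66 (CDT+DHT), and 6.98, 6.63 and 5.94 (CDT). All 17 other arrays were above late G1, CDT replicate 3 by the least. The difference was -2.49 ± 0.48 against CDT+DHT (5.62-fold lower, limma adjusted p = 0.0238) and -1.92 ± 0.38 against the other arrests (adjusted p = 0.0205). The first call was lost without any 1 CDT+DHT array or late G1 replicate 1 or 3 (adjusted p up to 0.14), and the second without late G1 replicate 1 or 3 (adjusted p up to 0.168). H2BC7 had 4.94, 4.85 and 4.51 in late G1, against 7.22, 6.91 and 6.91 in CDT+DHT, with a difference of -2.25 ± 0.49 (4.74-fold lower, adjusted p = 0.0487). It passed in 8 of 20 refits that left out 1 array, and not without any 1 late G1, CDT+DHT or G2/M array, CDT replicate 2, late S replicate 3 or early G1 replicate 1 (adjusted p up to 0.195). The widest H2B difference, that of H2BC14, was -2.69 ± 0.79 and did not pass (adjusted p = 0.128); its late G1 arrays had 1.18, 3.92 and 0.86. H2BC4 differed by -2.62 ± 0.89 (adjusted p = 0.191) and H2BC17 by -2.33 ± 0.59 (adjusted p = 0.0762).

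H4C2 was the H4 member that passed. Its log2 intensities were 8.11, 6.80 and 7.52 (early G1), 4.63, 5.62 and 5.78 (late G1), 8.33 and 6.14 (early S), 5.12, 7.04 and 6.56 (late S), 7.99, 8.46 and 7.88 (G2/M), 8.24, 8.16 and 8.24 (CDT+DHT), and 7.10, 7.20 and 6.74 (CDT). Late G1 was below CDT+DHT and CDT on every array and overlapped with late S through its replicate 1. The difference from CDT+DHT was -2.87 ± 0.60 (7.31-fold lower, limma adjusted p = 0.039), and that from the other arrests was -1.92 ± 0.48 (adjusted p = 0.0736). The call held in 9 of 20 refits that left out 1 array, and not without any 1 late G1, CDT+DHT or G2/M array, CDT replicate 2 or late S replicate 3 (adjusted p up to 0.153).

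Of the 13 H4 members, H4C14 and H4C15 included, 12 were below 0 in late G1 against CDT+DHT, with a median of -1.61, and all 13 were below 0 against the other arrests, with a median of -1.06. H4C8 had 8.30, 8.12 and 8.26 in late G1, against 10.07, 9.88 and 9.70 in CDT+DHT, a difference of -1.65 ± 0.46 (limma adjusted p = 0.103). H4C3 had 8.07, 8.54 and 8.69 in late G1, against 10.33, 10.15 and 9.82 in CDT+DHT, a difference of -1.67 ± 0.52 (adjusted p = 0.154). H4C5 had 8.88, 9.13 and 9.10 in late G1, against 10.40, 9.86 and 9.39 in CDT+DHT, a difference of -0.85 ± 0.56 (adjusted p = 0.525). These 3 genes did not pass. In each the late G1 arrays were all below the CDT+DHT arrays, as they were in 14.0% of all genes. H4C14 and H4C15, each on a cluster of its own with the same values, had the largest difference of the class, -2.92 ± 0.75 (adjusted p = 0.0811), on a dim signal with 3 arrays under an intensity of 1. A brighter cluster annotated to both genes, which was not tested, averaged 5.50 in late G1. It averaged 6.53 in CDT+DHT and 5.38 to 6.05 in the other arrests.

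H3 stood closest to no difference, with a median of -0.28 in late G1 against CDT+DHT (5 of 8 below 0) and -0.06 against the other arrests (4 of 8 below 0). In each, 0 passed (limma) and 3 had an unadjusted p under 0.05, against 14.0% and 10.5% of all genes. Whether H3 differed from the other classes was not tested. H3C1, H3C2, H3C3, H3C7 and H3C8 had 2, 1, 1, 5 and 6 arrays under an intensity of 1, so the class medians rest in large part on low signals. H3C11 had 2.20, 3.17 and 4.02 in late G1, against 6.12, 4.72 and 5.33 in CDT+DHT, a difference of -2.26 ± 0.69 (limma adjusted p = 0.149). H3C12 ran the other way, with 5.36, 5.50 and 6.32 in late G1, against 4.38, 4.80 and 4.60 in CDT+DHT (1.14 ± 0.43, adjusted p = 0.236). H3C10 had -0.45 ± 0.62. H3C1, H3C2, H3C3 and H3C7 had differences of 0.48, -0.91, -0.31 and -0.24. H3C8 had the highest difference of the class, 1.83 ± 0.63 (adjusted p = 0.198), with the CDT+DHT arrays near 0.

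**Figure D3:**
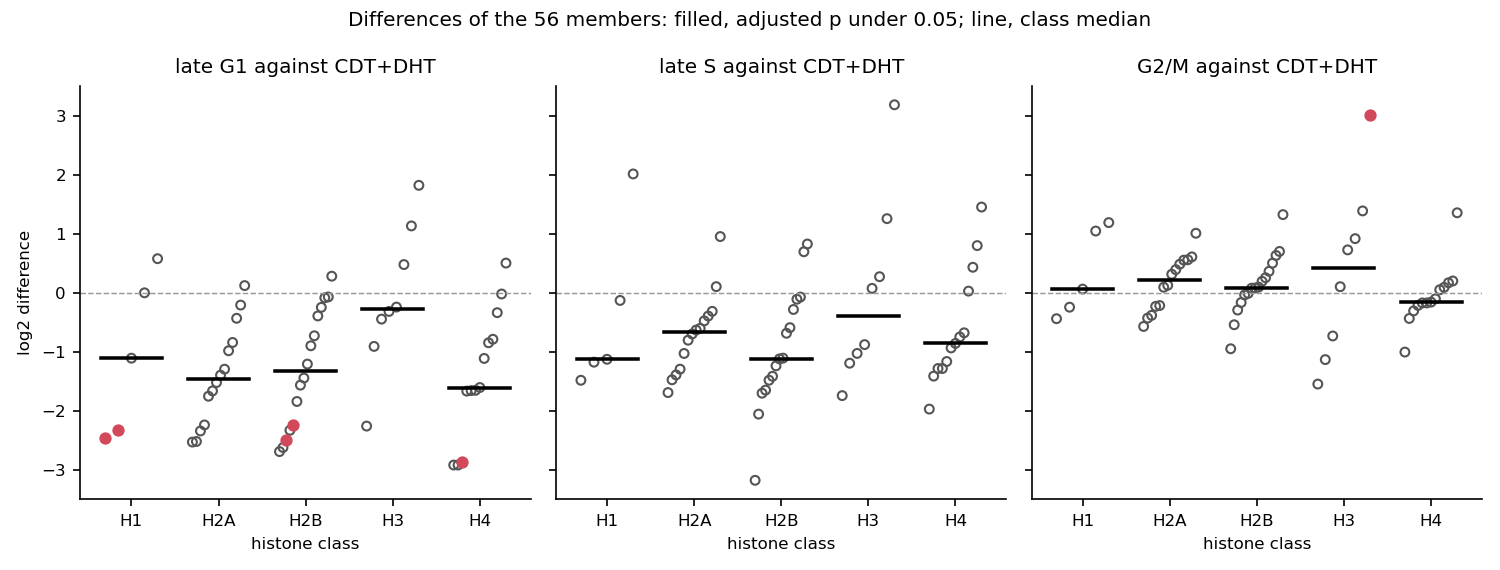
Each point is the log2 difference of 1 of the 56 members by class, with the class median as a line and filled points for members with an adjusted p under 0.05. The 5 filled points in late G1 against CDT+DHT lie between -2.25 and -2.87, late S against CDT+DHT has no filled point, and H3C8 at 3.01 is the filled point in G2/M against CDT+DHT.

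**Figure D4:**
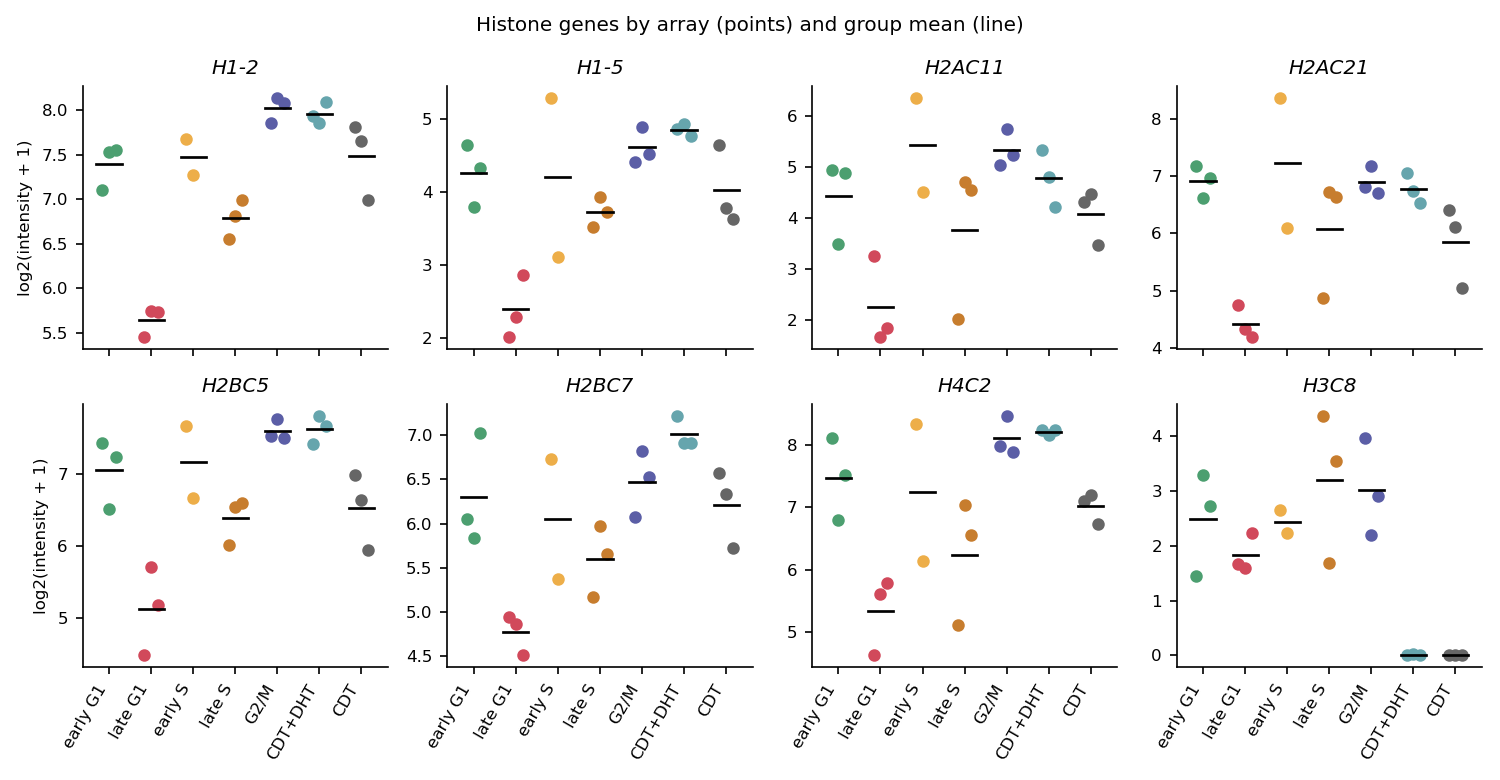
Log2(intensity + 1) of the 8 histone members that passed in any comparison is plotted for each array (points) with the group mean (line); each panel has its own axis. Late G1 has the lowest group mean in all panels except H3C8, where the 6 CDT+DHT and CDT arrays are near 0.

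Late S, the hydroxyurea arrest, had the next lowest mean of the 56 members, and replicate 1 set that order: the late S arrays had 3.75, 4.43 and 4.33, against 4.52, 4.55 and 4.02 in CDT, the group next to it. Against CDT+DHT, 0 of 56 members passed (limma), where 0.0706% of all genes did. At an unadjusted p under 0.05 there were 15 members, against 10.2% of all genes, and 16 members had all late S arrays below all CDT+DHT arrays, against 8.81%. The median was -0.83, against -0.01 over all genes, with 43 of 56 below 0, and the class medians were -1.13 for H1, -0.66 for H2A, -1.11 for H2B, -0.40 for H3 and -0.86 for H4. H2BC14 had 0.73, 2.17 and 1.60 in late S, against 4.90, 4.65 and 4.50 in CDT+DHT (-3.18 ± 0.79, adjusted p = 0.156). H2BC17 differed by -2.06 ± 0.59 (adjusted p = 0.257) and H4C2 by -1.97 ± 0.60 (adjusted p = 0.311). The median was -0.38 without late S replicate 1, and 1 member passed without late S replicate 2.

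Early S, early G1 and G2/M had medians closer to 0 against CDT+DHT, and the size of each, in early S and G2/M also its sign, changed with the arrays left out. In early S against CDT+DHT the median was -0.04 and 0 of 56 passed (limma; 0.00543% of all genes did), with 2 at an unadjusted p under 0.05, against 7.62% of all genes. That median was -0.71 without early S replicate 1, 0.71 without early S replicate 2, and 0.21, -0.10 and -0.17 without CDT+DHT replicates 1, 2 and 3. In early G1 against CDT+DHT the median was -0.24 and 0 passed, as in all genes (0%), with 1 member at an unadjusted p under 0.05, against 8.07% of all genes. That median was -0.07 without early G1 replicate 2, -0.37 without early G1 replicate 3, -0.08 without CDT+DHT replicate 1 and -0.43 without CDT+DHT replicate 3. In G2/M against CDT+DHT the median was 0.09 and 1 member, H3C8, was called higher, against 0.271% of all genes, with 3 at an unadjusted p under 0.05, against 15.1% of all genes. That median was 0.29 without G2/M replicate 1, -0.13 without G2/M replicate 2, and 0.17, 0.05 and -0.05 without CDT+DHT replicates 1, 2 and 3, and it was -0.06 with arrayWeights and -0.02 with centred arrays.

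G2/M cells, which had left the aphidicolin block before nocodazole, were also compared with both S arrests. All 16 H2B members were above 0, as were 10 of 14 H2A, 11 of 13 H4, 4 of 5 H1 and 4 of 8 H3 members, and the median over the 56 was 0.48, against 0.00 over all genes. That median was 0.74 without early S replicate 1, 0.19 without early S replicate 2, 0.32 without G2/M replicate 2 and 0.24 with a pseudocount of 16. None of the 56 passed (limma; 0.0109% of all genes did), and 7 had an unadjusted p under 0.05, against 3.75% of all genes. H2BC14 had 4.33, 5.62 and 4.35 in G2/M, against 4.39 and 2.71 in early S and 0.73, 2.17 and 1.60 in late S (2.24 ± 0.71, adjusted p = 1.00). H4C2 differed by 1.37 ± 0.54 and H1-2 by 0.90 ± 0.37. H1-2 was the 1 member of 56 with every G2/M array above every S array, and the share of all genes was not computed. Lower in G2/M was H4C16, with a mean of 1.84, against 3.98 in early S and 2.87 in late S. H3C7 likewise averaged 0.96, against 3.35 and 1.62. These 2 genes had 2 and 5 arrays under an intensity of 1. Both S arrests against early G1 gave a median of -0.21, with 0 of 56 passing (0.0271% of all genes did) and 1, H2BC1 (-1.88 ± 0.61), at an unadjusted p under 0.05, against 2.30% of all genes. It was 0.17 without early S replicate 2, -0.40 without early S replicate 1, -0.13 without late S replicate 1, and -0.34 and -0.10 without early G1 replicates 2 and 3.

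Among the 5 arrests, limma's F test called 0 of 56 members, against 0.255% of all genes, and 23 members had an unadjusted p under 0.05, against 6.89% of all genes. H1-2 came closest of the members, with an adjusted p of 0.0673.

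DHT itself was compared in the cells kept in CDT medium. None of the 56 members passed in CDT+DHT against CDT (limma), as none of all genes did (0%), and 8 had an unadjusted p under 0.05, against 6.86% of all genes. The median was 0.56, against -0.10 over all genes, with 42 of 56 above 0, and 14 members had all CDT+DHT arrays above all CDT arrays, against 7.81%. H2BC17 had 4.75, 4.30 and 4.84 in CDT+DHT, against 3.37, 2.71 and 2.34 in CDT (1.82 ± 0.59, adjusted p = 0.696). H4C1 went the other way, with 3.44, 2.71 and 0.00 in CDT+DHT, against 5.37, 4.17 and 3.68 in CDT (-2.35 ± 0.77, adjusted p = 0.696). H4C2 had 8.24, 8.16 and 8.24 in CDT+DHT, against 7.10, 7.20 and 6.74 in CDT, a difference of 1.20 ± 0.60 (adjusted p = 0.717).

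Against CDT, no arrest had a member that passed (limma). Early G1 had a median of 0.35, where 0.00543% of all genes passed, and 2 members at an unadjusted p under 0.05, against 5.11% of all genes. Late G1 had a median of -0.66, where 0.103% of all genes passed, and 16 members at an unadjusted p under 0.05, against 9.06% of all genes, with 44 of 56 below 0. Early S had a median of 0.43, where 0.0326% of all genes passed, and 6 members at an unadjusted p under 0.05, against 5.57%. Late S had a median of -0.34, where 0.0977% of all genes passed, and 3 such members, against 5.94%. G2/M had a median of 0.60, where 0.109% of all genes passed, and 10 such members, against 7.05%. In G2/M, 43 of 56 were above 0, and 18 had all G2/M arrays above all CDT arrays, against 6.64% of all genes. All these comparisons share the CDT arrays, as those against CDT+DHT share theirs. The early S median against CDT was -0.061 without early S replicate 1, 1.13 without early S replicate 2 and 0.28 without CDT replicate 3. The late S median was -0.07 without late S replicate 1, -0.53 without late S replicate 2, -0.21 without CDT replicate 2, -0.03 with arrayWeights and 0.036 without late S replicate 1, CDT replicate 1 and early G1 replicate 2 together. The early G1 median was 0.56 and 0.20 without early G1 replicates 2 and 3, 0.21 without CDT replicate 3 and 0.62 without those 3 arrays. In late S against CDT, 1 member passed without early G1 replicate 1 or late S replicate 2, and in G2/M against CDT 1 passed without late S replicate 1 or 2.

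H3C8 was near 0 in both groups kept in CDT medium and above an intensity of 1 on every arrested array. Its intensities were 1.73, 8.86 and 5.61 (early G1), 2.20, 2.02 and 3.70 (late G1), 5.28 and 3.72 (early S), 19.6, 2.21 and 10.7 (late S), and 14.7, 3.57 and 6.48 (G2/M). They were 0.0038, 0.0125 and 0.003 in CDT+DHT and 0.0096, 0.0113 and 0.0062 in CDT. The 14 arrested arrays therefore did not overlap with the other 6, whether or not those had DHT. The share of all genes that separate these arrays in the same way was not computed. The difference of G2/M from CDT+DHT was 3.01 ± 0.63 (8.07-fold higher on the intensity + 1 scale, limma adjusted p = 0.044), and that of late S was 3.19 ± 0.63 (adjusted p = 0.0714). With a pseudocount of 16 in place of 1, the G2/M difference was 0.57 and did not pass (adjusted p = 0.175). The call was made in 7 of 20 refits that left out 1 array and lost (adjusted p up to 0.216) without CDT replicate 2 or 3, early G1 replicate 3, late G1 replicate 2, late S replicate 3, or any 1 of the early S, CDT+DHT or G2/M arrays.

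The 6 members known to make polyadenylated transcripts as well (H1-2, H2AC6, H2BC4, H2BC5, H2BC12 and H2BC21) were all below 0 in late G1 against CDT+DHT, with a median of -1.86, and 2 of them, H1-2 and H2BC5, passed. Against the other arrests the median was -1.50 with the same 2 passing. H2BC12 moved least, with 4.62, 5.06 and 4.88 in late G1, against 5.05, 5.18 and 4.54 in CDT+DHT (-0.07 ± 0.48). H2BC21 had 5.13, 3.96 and 4.63 in late G1, against 6.59, 6.31 and 4.45 in CDT+DHT (-1.21 ± 0.58, limma adjusted p = 0.357). Late S against CDT+DHT gave this list a median of -1.21 and G2/M against both S arrests 0.86, with 0 passing in either (limma). In each, 3 had an unadjusted p under 0.05 (limma), against 10.2% and 3.75% of all genes.

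Histone genes that are not members, listed as replication-independent, were measured for comparison, 9 of 12 genes. H2AX, the variant phosphorylated at DNA breaks, whose mRNA exists in a stem-loop and a polyadenylated form, averaged 5.24 ± 1.12 (early G1), 2.91 ± 1.03 (late G1), 5.70 ± 0.38 (early S), 5.59 ± 0.27 (late S), 6.20 ± 0.41 (G2/M), 6.49 ± 0.09 (CDT+DHT) and 4.91 ± 0.59 (CDT) (SD, n = 3 and 2 in early S). It was the 1 of the 9 that passed, lower in late G1 by -3.58 ± 0.59 against CDT+DHT (limma adjusted p = 0.00891) and by -2.78 ± 0.47 against the other arrests (adjusted p = 0.00621). The 9 genes had medians of -1.05 and -0.29 in these comparisons, with 8 below 0 in each.

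Of the genes that act on histone genes and their mRNAs, 0 of 20 passed in any comparison (limma). In late G1 against CDT+DHT their median was 0.21, with 10 above and 10 below 0. There, 5 had an unadjusted p under 0.05 (limma), against 14.0% of all genes. E2F1, an activator of genes of the G1/S transition, had -2.03 ± 0.58 (adjusted p = 0.123), and CPSF2, a subunit of the complex that cuts histone pre-mRNA, had 3.20 ± 0.99 (adjusted p = 0.152). Against the other arrests the median was -0.46, with 15 of 20 below 0. The 20 genes had their largest medians against CDT+DHT in G2/M (1.13, 12 above 0) and early S (0.93, 15 above 0). At an unadjusted p under 0.05 (limma) there were 8 and 7 of them, against 15.1% and 7.62% of all genes. Of the 11 histone chaperones 0 passed in any comparison (limma). At an unadjusted p under 0.05 (limma) there were 3 in late G1 against CDT+DHT, against 14.0% of all genes. Late G1 against the other arrests also had 3, against 10.5% of all genes. The median of the chaperones in late G1 against CDT+DHT was -0.44. DAXX, which deposits H3.3, had -1.97 ± 0.66 there (adjusted p = 0.184). CHAF1B, a subunit of the chromatin assembly factor that works at replication forks, had -2.18 ± 0.65 against the other arrests (adjusted p = 0.159).

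Members also differed between replicates of a group. Each array was scored on the main axis (first principal component) of deviations from the means of the groups, over 3285 brighter genes that were no members, an axis that held 52.6% of their within-group variance. Late S replicate 1 scored 1.83, CDT replicate 1 scored 1.80 and early G1 replicate 2 scored 1.68, while late S replicate 2 had the lowest score, -1.71. Across the 20 arrays, the correlation of a member's deviation with the score was over 0.5 for 8 of 56 members, against 2031 of 18417 genes, and under -0.5 for 7 members, against 5215 genes. These correlations are descriptions, since the arrays share their RNA with the score. H2BC9 (r = 0.94), H2BC10 (0.91) and H2BC3 (0.81) followed the score most closely, and H2BC12 (-0.77) and H3C10 (-0.71) ran against it. H2BC9 had 7.55, 4.81 and 6.40 in late S and 6.95, 5.03 and 6.09 in CDT, with the highest value of each group on the array that scored over 1.5. H1-2 (0.37), H2BC5 (0.02) and H4C2 (-0.24) followed it less. Without the 3 arrays over 1.5, 10 members passed in late G1 against CDT+DHT and 13 against the other arrests. That choice was one-sided, since late S replicate 2, at -1.71, was kept. It also took out late S replicate 1, which had the lowest member mean outside late G1 (3.75). How far the rise in calls follows from the choice was not tested.

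**Figure D5:**
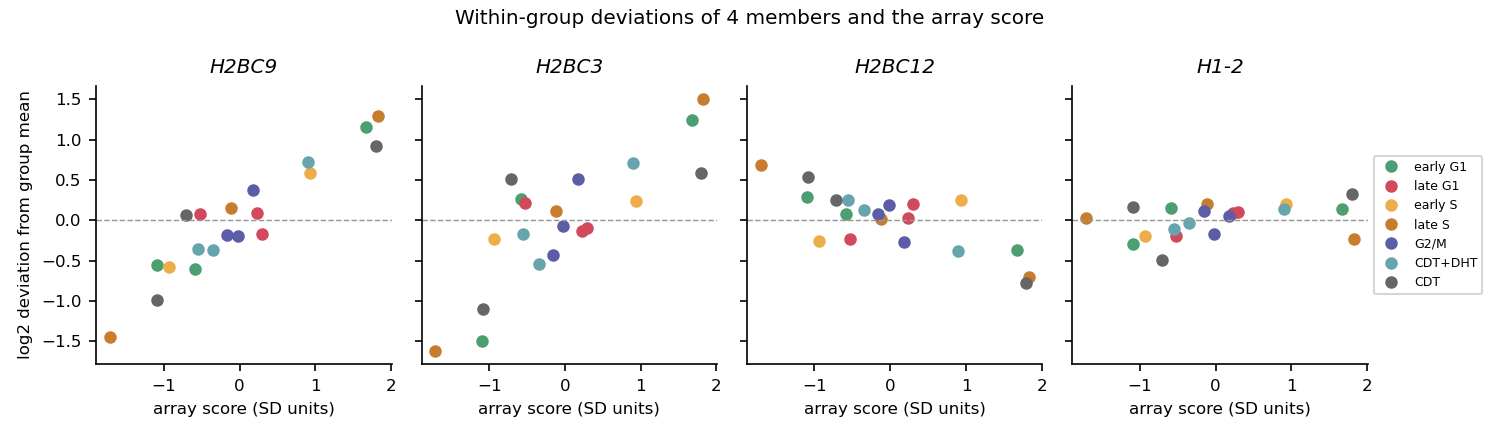
The log2 deviation of 4 members from their group mean is plotted against the array score (in units of its SD) for the 20 arrays, coloured by group. H2BC9 and H2BC3 rise along the score (r = 0.94 and 0.81), H2BC12 falls (-0.77), and the points of H1-2 stay close to 0 (0.37).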

How the data were processed

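RNA of LNCaP cells was extracted with Trizol and amplified with NuGEN's Ovation Pico WTA V2 kit, per the labels, which do not state how that kit primes RNA without a poly(A) tail. The cDNA was measured on 20 Affymetrix gene arrays, whose features were named from GEO's platform annotation. The deposited values are intensity per transcript cluster, made by the authors in Affymetrix's Expression Console 1.1 software (named in the submitters' processing notes). How probes were summarised and whether arrays were normalized is not stated in any source at hand, and the values are on a linear scale (0 of them at or below 0).

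Values were taken as log2(intensity + 1). Features annotated to 1 gene symbol were kept, with current names from RefSeq, and the brightest cluster stood for a gene, which left 18417 genes of 33297 features. All 20 arrays were fitted with limma 3.58.1 in R 4.3.3 (lmFit, then eBayes at its defaults, with a coefficient for each group), two-sided. P-values were adjusted by Benjamini and Hochberg (Benjamini-Hochberg) over all 18417 genes and called under 0.05. Python 3.11.15 with pandas 2.3.3 and matplotlib 3.10.9 made the tables and figures. The fit was tested on simulated data. A fold is 2 to the power of the log2 difference and understates the change of dim genes; 20 members had an array with an intensity under 1. The number of arrays limits the precision.

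Members, lists and tests were chosen with earlier results of these data known. Named were the 3 brightest members per class, all that passed, the 2 largest differences per direction and comparison, and the members with polyadenylated transcripts. From the other lists, genes that passed and some of the larger differences that did not were named, not always the largest. Where a text on a comparison is short, some of these are left out. Same-numbered replicates of different groups correlated at over 0.1 in 20 of 57 pairs (range -0.74 to 0.71). The main fit therefore did not pair arrays by number. Among early S, late S and CDT, same-numbered arrays correlated at 0.43 to 0.71, except late S and CDT replicate 3 (-0.28). Some different-numbered arrays of these groups did so as well (early S replicate 2 and CDT replicate 3, 0.61). Whether arrays of some groups were handled together was not tested. Alternatives were a pseudocount of 16, quantile normalization, arrays centred on their median, dim genes left out, clusters of a gene averaged, arrayWeights, eBayes with trend and robust, a replicate block, a fit of the compared groups alone, the array score as a covariate, and leaving out each array in turn. Leaving out the 3 arrays that stood apart (scores over 1.5, with none left out for a low score) and leaving out H4C15 were added after seeing the data.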

Additional observations from a re-analysis of the deposited data

How the results depend on the processing

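None of the 10 calls changed direction under the other settings tried or without any 1 of the 20 arrays. With the main counts at 5 in late G1 against CDT+DHT and 4 against the other arrests, the counts were 9 and 9 with dim genes left out, 9 and 9 with trend and robust eBayes, 23 and 15 with arrayWeights, 0 and 2 when other groups were left out of the fit, 16 and 10 with the array score as a covariate, and 10 and 13 without the 3 arrays that stood apart. The first was also 9 with centred arrays, 11 with a pseudocount of 16 and 1 with the replicate block. Leaving out 1 array gave 0 to 7 and 0 to 11. The array score was made from these same arrays' deviations from their group means. As a covariate it takes up within-group spread by construction, so the higher counts with it are no independent support. The median difference in late G1 against CDT+DHT was -0.66 with a pseudocount of 16, -1.57 with arrayWeights and -1.66 to -0.92 without 1 array; against the other arrests it was -0.51 with the pseudocount of 16. That pseudocount also gave medians of 0.27 in CDT+DHT against CDT, -0.14 in early G1 against CDT+DHT, -0.067 in both S arrests against early G1, and 0.19 (early G1), -0.31 (late G1), -0.13 (late S) and 0.37 (G2/M) against CDT.

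In G2/M against CDT+DHT the count of 1 was 0 with quantile normalization, centred arrays, dim genes left out (H3C8 was then not tested) or the replicate block, 2 with arrayWeights or the score, and 0 to 1 without 1 array. Among the arrests the F test called 4 with a pseudocount of 16, 2 with dim genes left out, 6 with trend and robust, 7 with arrayWeights and 2 with the score. In late S against CDT+DHT, 1 passed with a pseudocount of 16, 11 with arrayWeights, 2 with the score and 0 to 1 without 1 array; its median was -0.42 with the pseudocount, -0.38 without the 3 arrays and -1.16 to -0.38 without 1. Late G1 against CDT had 1 with a pseudocount of 16, dim genes left out, trend and robust, arrayWeights or the score. Late S and G2/M against CDT had 1 each with arrayWeights or the score and 0 to 1 without 1 array, and early G1 and early S against CDT+DHT had 1 each with the score. The late S median against CDT was 0.036 without the 3 arrays. Without 1 array the median was -0.061 to 1.13 in early S against CDT, -0.71 to 0.71 against CDT+DHT and -0.40 to 0.17 in both S arrests against early G1. The causes were not tested, except that the fits without the other groups have fewer arrays and that the score takes up within-group spread by construction. The replicate block moved no other count of calls; 10 of 20 arrays correlated better on average with their own number.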

Other observations

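The 13 histone genes that lay only on shared clusters were not tested, and their clusters are given as group means of log2 intensity, with the genes of a cluster not told apart. Of 2 clusters annotated to H2BC18 and the pseudogene H2BP1, the first averaged 7.16 ± 0.68 (early G1), 5.24 ± 0.17 (late G1), 7.18 ± 0.95 (early S), 6.43 ± 0.36 (late S), 7.67 ± 0.52 (G2/M), 7.61 ± 0.41 (CDT+DHT) and 6.58 ± 0.60 (CDT) (SD, n = 3 and 2 in early S). The second ran differently, with 5.64 ± 0.38 (early G1), 4.83 ± 0.41 (late G1), 4.62 ± 0.95 (early S), 4.81 ± 1.37 (late S), 4.35 ± 0.35 (G2/M), 5.81 ± 0.52 (CDT+DHT) and 6.69 ± 0.45 (CDT), so that its lowest mean was in G2/M and its highest in CDT. Of the other clusters that hold H2BC18, that with H2BP1 and H2BC21 averaged 5.37 in late G1, against 7.90 in CDT+DHT and 6.85 in CDT, and that with FCGR1BP 2.67 in late G1, against 3.26 in CDT+DHT and 3.92 in CDT. The cluster for H2AC18, H2AC19, H2AC20 and H2AC21 averaged 7.21 in late G1, against 8.37 in CDT+DHT and 7.06 in CDT. The cluster for H2BC5, H2BC12, H2BC12L and H2BC17 averaged 5.27 in late G1, against 7.28 in CDT+DHT and 6.19 in CDT. The cluster for H2BC15 and H2AC15 averaged 4.10 in late G1, against 4.52 in CDT+DHT and 4.29 in CDT, with SDs of 0.48 to 1.23. The cluster for H3C6 and H3C11 averaged 3.72 in late G1, against 4.49 in CDT+DHT and 4.47 in CDT. A cluster for H4C11 and H4C12 averaged 4.30 in late G1, 4.12 in late S and 5.75 in G2/M, against 5.64 in CDT+DHT and 4.41 in CDT. The cluster for H3C4 and H2AC7 averaged 1.50 in late G1, against 3.45 in CDT+DHT and 2.11 in CDT. A cluster for H3C13, H3C14 and H3C15, genes that encode H3.2, had its lowest mean in G2/M, at 2.00, against 3.93 in CDT+DHT and 3.27 in CDT. A cluster annotated to both H4C14 and H4C15, unlike those tested, averaged 5.50 in late G1 and 5.38 in G2/M, against 6.53 in CDT+DHT and 5.82 in CDT.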
